A study of Mus musculus with 6 samples.

Results

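The integrated stress response and the unfolded protein response were followed through 10 genes, *Atf4*, *Ddit3*, *Trib3*, *Chac1*, *Asns*, *Sesn2*, *Psat1*, *Phgdh*, *Hspa5* and *Xbp1*, picked by name out of 53378 genes with a value in every library. The cells were neural stem cells (NSCs), taken from mouse cortex at E14.5 and grown with bFGF and EGF. All of them were *Tbl1xr1* flox/flox. They were infected with a lentivirus carrying either GFP only (3 control libraries, replicates 1, 1_1 and 2) or Cre-GFP, whose recombinase removes floxed DNA (3 libraries labelled Cre, replicates 2, 2_2 and 3), and GFP+ cells were sorted. The sources do not state if control 1 and 1_1 were separate cultures or embryos, nor if Cre 2 and 2_2 were, so the p-values measure the spread between these libraries, which may be technical. The study checked the sorted cells for genotype and for loss of *Tbl1xr1* mRNA and protein.

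When uncharged tRNA, misfolded protein in the endoplasmic reticulum (ER) or other stress activates a kinase of the initiation factor eIF2, general protein synthesis falls while the mRNA of the transcription factor ATF4 is translated more. ATF4 and the factor CHOP, encoded by *Ddit3*, then raise genes for amino acid uptake, amino acid synthesis and tRNA charging. Misfolded protein in the ER also acts through ATF6 and through IRE1, which splices *Xbp1* mRNA, and these arms raise the ER chaperones. RNA-seq counts per gene measure mRNA amount and neither the translation of *Atf4* nor the splicing of *Xbp1*.

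The values were normalized counts, which are reads per gene divided by 1 size factor per library. Where single libraries are listed, controls stand in the order 1, 1_1, 2 and Cre libraries in the order 2, 2_2, 3. Reads on genes ran from 7510615 to 11161497 in the control libraries and from 11893230 to 14828100 in those labelled Cre. In these libraries *Tbl1xr1* reads over the whole gene were not lower with Cre. The normalized counts were 2522, 2190 and 2721 in the controls, against 3774, 3463 and 2905 with Cre (log2 fold change 0.45, adjusted p = 0.0600). Every Cre library was above every control, and the gene was called higher by DESeq2 (adjusted p = 0.0398) and without Cre replicate 3 (adjusted p = 0.0234). A count over the whole gene cannot show loss of the floxed part, and the groups are named by their labels. Among the markers of the labelled cells, *Sox2* and *Nes* were present in all 6 libraries. Of 10 tested NSC markers 0 were called higher and 2, *Nes* and *Sox1*, lower, with log2 fold changes of the 10 from -2.27 to 0.38. Over all tested genes 4.74% were called higher and 5.22% lower. The 8 markers of endothelial cells and fibroblasts summed to 7.34 to 21.9 normalized counts in the controls and 7.62 to 25.1 with Cre, with *Cldn5*, *Cdh5* and *Pdgfrb* at 0 in every library. The 5 microglia markers summed to 162 to 205 and 166 to 273. Nearly all of that was *Csf1r*, the only one tested (log2 fold change 0.25, adjusted p = 0.483), and *Tmem119* was at 0 in every library. In bulk RNA, fewer cells of a type and less RNA per cell cannot be told apart.

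All 10 genes passed the minimum mean normalized count of 10 and were tested. The test was limma on log2(normalized count + 1), with p-values adjusted over all 14840 tested genes, and a gene was called at an adjusted p under 0.05. None of the 10 was called: 0 were higher, against 4.74% of all tested genes, and 0 were lower, against 5.22% (9.96% in either direction). The groups overlapped for all 10 genes, whereas they did not overlap for 30.3% of all tested genes. At an unadjusted p under 0.05 the count of the 10 was also 0 with limma, and it was 1 with edgeR and 1 with DESeq2 on recovered reads, *Phgdh* each time. Log2 fold changes were above 0 for 5 genes and below 0 for 5, with a median of -0.04 beside -0.0010 over all tested genes. The plot of normalized counts by library shows the individual values and the plot of estimates their intervals. The intervals were narrow for *Psat1* and *Asns* and wide for *Chac1*, *Phgdh* and *Trib3*.

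**Figure D1:**
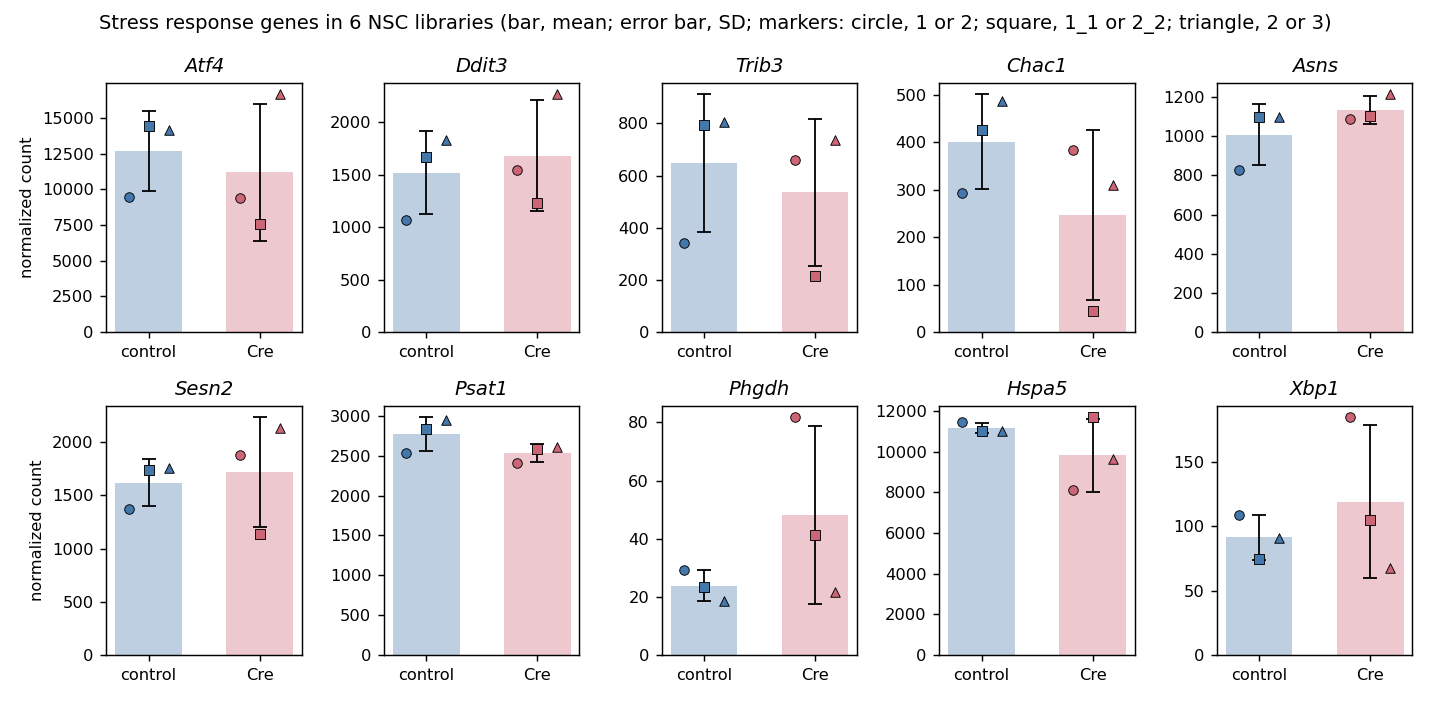
Normalized counts of the 10 genes (vertical axes, each from 0) in control libraries and libraries labelled Cre; bars are means of 3 libraries, error bars SD, and markers the single libraries. The 2 groups overlap in every panel, and *Chac1* and *Trib3* are lowest in Cre replicate 2_2.

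**Figure D2:**
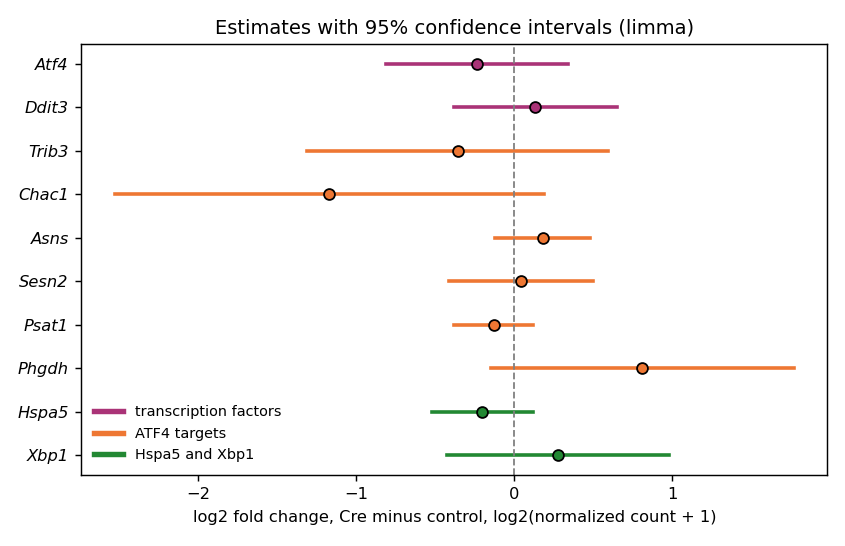
Log2 fold changes of the 10 genes, Cre minus control, on the log2(normalized count + 1) scale (horizontal axis) with 95% confidence intervals from limma; colours mark the transcription factors, the ATF4 targets, and *Hspa5* with *Xbp1*. All 10 intervals include 0, from the widest, *Chac1* (-2.52 to 0.19), to the narrowest, *Psat1* (-0.38 to 0.12).

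The levels spanned a wide range. Per kilobase of exon (normalized count per kb, means of 3 control libraries), *Atf4* stood highest at 7358, followed by *Hspa5*, the main ER chaperone, at 3175. *Ddit3* (888), *Psat1* (651), *Sesn2* (466), *Asns* (369), *Trib3* (304) and *Chac1* (245) came next. *Xbp1* (28.2) and *Phgdh* (9.58) were the lowest. The place of *Phgdh* is uncertain, because nearly all of its transcript has close copies elsewhere in the genome. With Cre the order of the means from *Atf4* (6497 per kb) to *Phgdh* (19.4 per kb) was the same. Across the control libraries the ranges of *Ddit3* and *Psat1* overlapped, as did those of *Sesn2* and *Asns*, *Asns* and *Trib3*, and *Trib3* and *Chac1*. The other neighbours in that order did not overlap. Within each single control library the order held, except that *Chac1* (179) stood above *Trib3* (161) in control replicate 1.

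Of the transcription factors, *Atf4* mRNA stood at 9435, 14432 and 14187 normalized counts in the controls, and at 9365, 7583 and 16656 with Cre. The lowest and the highest value of all 6 libraries were both in the Cre group. The means were 12685 ± 2817 and 11201 ± 4807 (SD, n = 3 each), with a log2 fold change of -0.24 (SE 0.26, 95% CI -0.81 to 0.34, limma adjusted p = 0.626). That interval leaves room for a decrease to 0.570-fold or an increase to 1.27-fold.

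*Ddit3*, whose product CHOP drives cell death programs when ER stress lasts, was at 1069, 1668 and 1828 in the controls, and at 1544, 1232 and 2267 with Cre. Control replicate 1 was again the lowest control and Cre replicate 3 the highest library. Its log2 fold change was 0.13 (SE 0.23, 95% CI -0.38 to 0.65, limma adjusted p = 0.771). It was -0.10 without control replicate 1 and -0.10 without Cre replicate 3, also not called. The annotated span of *Ddit3* overlaps those of *Mars* and *RP24-341K21.6* on the opposite strand, and overlap of exons was not checked. It is not given whether the counting used strand, so reads of any shared exon bases could not be told apart. *Mars* was at 2024 to 3045 in control and at 2339 to 3114 with Cre.

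Genes induced by ATF4 often carry a C/EBP-ATF response element (CARE), which ATF4 binds with a C/EBP partner. Promoters were taken from RefSeq on GRCm38.p6 (250 bases before to 50 after the annotated start, whose first transcribed base is counted as 0), and all 10 genes had at least 1 (*Psat1* had 2). The core TGATGNAA, searched on both strands, was in the window of 3 of the 10 genes, *Trib3*, *Chac1* and *Asns*, and in 3.97% of 32851 promoters. The full form TGATGCAA was in 1 of the 10, *Chac1*, and in 0.895% of promoters. The cAMP response element TGACGTCA was in 0 of the 10 and in 1.79% of promoters. The stretches below hold these cores in capitals, 5′ to 3′ on the strand of the gene, so that they can be set beside the levels of the 3 genes.
Chac1 promoter, chr2:119350992-119351241, plus strand, bases -250 to -1, with the core on the reverse strand at -193 to -186: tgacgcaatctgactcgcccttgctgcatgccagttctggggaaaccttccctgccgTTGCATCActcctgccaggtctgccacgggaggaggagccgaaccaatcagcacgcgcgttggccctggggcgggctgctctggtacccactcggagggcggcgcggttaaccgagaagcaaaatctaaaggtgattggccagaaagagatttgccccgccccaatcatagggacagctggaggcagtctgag
Asns promoter, chr6:7693210-7693459, minus strand, bases -250 to -1, with the core at -23 to -16: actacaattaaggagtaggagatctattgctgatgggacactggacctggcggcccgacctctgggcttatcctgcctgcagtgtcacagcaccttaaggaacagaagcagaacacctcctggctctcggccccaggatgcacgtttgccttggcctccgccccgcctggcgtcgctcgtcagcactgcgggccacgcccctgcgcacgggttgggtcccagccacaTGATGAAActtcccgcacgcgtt
Trib3 start region, chr2:152344028-152344057, minus strand, bases 3 to 32, with the core on the reverse strand at 14 to 21: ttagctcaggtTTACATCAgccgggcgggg
A match describes letters only and was not tested for binding.

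*Chac1*, which breaks down the antioxidant glutathione, was at 293, 426 and 487 in the controls, and at 384, 43.9 and 310 with Cre. Cre replicate 2_2 stood far below the rest, on 51 reads, and the other 5 libraries overlapped. The highest library held 11.1 times the normalized count of the lowest. Between the groups the log2 fold change was -1.17 (SE 0.62, 95% CI -2.52 to 0.19, limma adjusted p = 0.267). It was -0.19 without Cre replicate 2_2 (adjusted p = 0.693) and -1.74 without Cre replicate 2, where it was called (adjusted p = 0.0399). With every library kept, the log2 fold change was -0.69 with edgeR and -0.70 with DESeq2 on recovered reads. Averaging Cre 2 with 2_2 gave -0.61, and none of these fits called the gene. Over the 16 alternatives the adjusted p ran from 0.0399 to 0.693, so the value rested on the method and on which Cre libraries entered.

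*Trib3*, a pseudokinase that feeds back on ATF4 and CHOP, was at 342, 794 and 804 in the controls, and at 660, 214 and 735 with Cre. It had the same lowest library in each group as *Chac1* (control 1 and Cre 2_2), and the groups overlapped. The log2 fold change was -0.36 (SE 0.43, 95% CI -1.31 to 0.59, limma adjusted p = 0.661), and it was 0.21 without Cre replicate 2_2 (adjusted p = 0.774).

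*Sesn2*, which restrains mTORC1 when leucine is scarce, was at 1368, 1739 and 1754 in the controls, and at 1882, 1142 and 2133 with Cre. Cre replicate 2_2 was the lowest of all and Cre replicate 3 the highest. Its log2 fold change was 0.04 (SE 0.21, 95% CI -0.41 to 0.50, limma adjusted p = 0.918). It was -0.07 without control replicate 1, -0.05 without Cre replicate 2 and -0.14 without Cre replicate 3, called in none of these. The annotated span of *Sesn2* overlaps that of *Gm12981* on the same strand, and overlap of exons was not checked.

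The remaining targets encode enzymes of amino acid synthesis. *Asns*, the asparagine synthetase, was at 828, 1100 and 1098 in the controls, and at 1087, 1102 and 1214 with Cre. Only control replicate 1 stood apart, below the other 5 libraries. Between the groups the log2 fold change was 0.18 (SE 0.14, 95% CI -0.12 to 0.48, limma adjusted p = 0.458), and Cre replicate 2_2 was not low for this gene.

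*Psat1*, which makes phosphoserine on the way to serine, was at 2537, 2833 and 2942 in the controls, and at 2402, 2578 and 2610 with Cre. Control replicate 1 lay within the Cre range and the other 2 controls above it. The log2 fold change was -0.13 (SE 0.11, 95% CI -0.38 to 0.12, limma adjusted p = 0.521). The annotated span of *Psat1* overlaps that of *Gm3329* on the opposite strand, and overlap of exons was not checked.

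*Phgdh*, the first enzyme of serine synthesis, was listed at only 29.4, 23.4 and 18.7 in the controls, and at 81.7, 41.3 and 21.5 with Cre. These values came from 14 to 118 reads per library. Cre replicates 2 and 2_2 stood above all controls and Cre replicate 3 did not. Its log2 fold change was 0.81 (SE 0.44, 95% CI -0.15 to 1.77, limma adjusted p = 0.277), and 0.34 without Cre replicate 2. The level is uncertain. In the mm9 genome 10 other loci matched its transcript at 95% identity or more over at least 100 bases, and together they covered 96.6% of its 1893 bases, while no other of the 10 genes had such a copy. Among annotated genes overlapping these loci, the pseudogenes *Gm7901* and *Gm9252* were at 0 in every library, and *Il16* had a mean of 7.31. How reads that fit several loci were counted is not given in the sources used here, so *Phgdh* was left out where the targets are summarised.

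The same libraries stood at one end for most of these genes, though not for all. Among *Atf4*, *Ddit3* and the 5 targets other than *Phgdh*, control replicate 1 was the lowest control in 7 of 7 genes (31.0% of all tested genes), Cre replicate 2_2 was the lowest Cre library in 5 of 7 (27.1% of tested genes), and Cre replicate 3 was the highest Cre library in 6 of 7 (36.5% of tested genes). The mean over the 5 targets of log2(normalized count + 1) minus the control mean was -0.37, 0.16 and 0.21 in the controls, and 0.05, -1.02 and 0.11 with Cre. The low value of Cre replicate 2_2 came mostly from *Chac1* (-3.13) and *Trib3* (-1.49). Other genes at their lowest in that library, named after their values were seen, were *Herpud1* (173, against 476 to 708 elsewhere), *Ddit4* (1852, against 3106 to 6083) and *Vegfa* (469, against 1084 to 1564). Cre replicate 2_2 was not the shallowest library, at 12210170 reads on genes, and no label sets it apart.

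**Figure D3:**
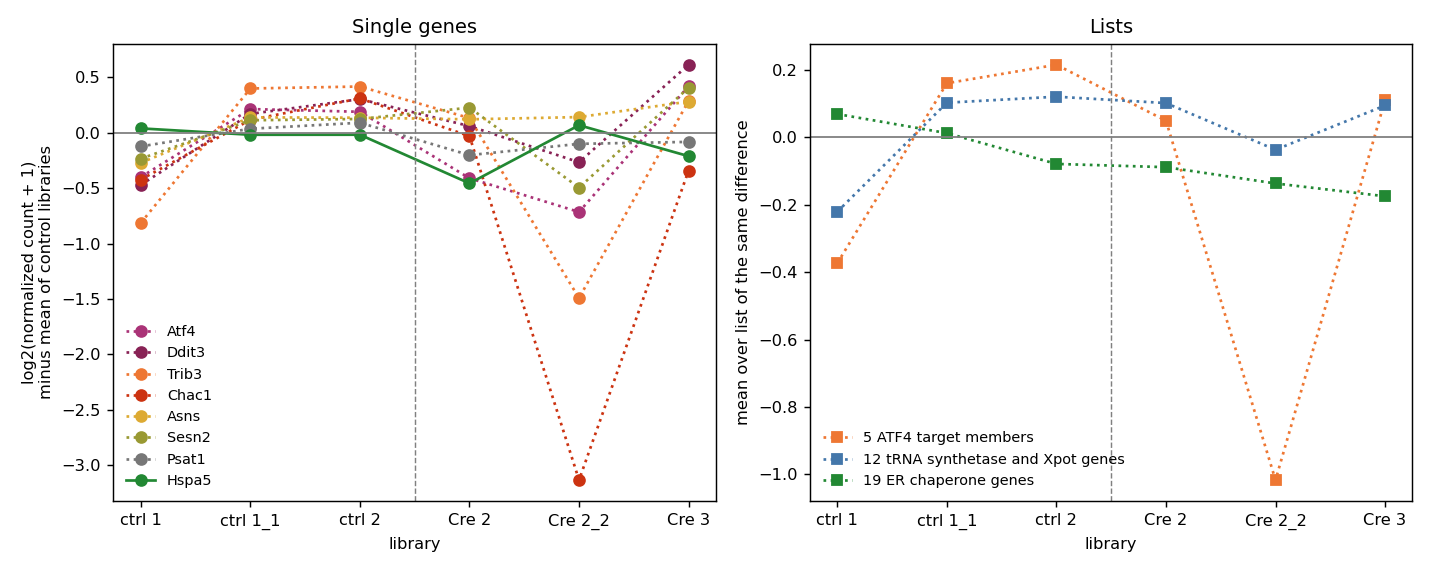
Log2(normalized count + 1) minus the mean of the control libraries (vertical axes) in each of the 6 libraries (horizontal axes), for 8 single genes (left) and as the mean over the 5 ATF4 targets without *Phgdh*, the 12 genes of tRNA charging and export, and the 19 ER chaperone genes (right); dotted and solid lines join libraries only to guide the eye. The 5 targets run from -1.02 to 0.21 and the ER chaperones from -0.18 to 0.07.

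*Hspa5* encodes BiP, the chaperone that binds unfolded protein in the ER and holds the stress sensors inactive. It was at 11452, 11005 and 11007 in the controls, and at 8122, 11682 and 9626 with Cre. The controls lay close together, and the Cre libraries held both the lowest and the highest value. Between the groups the log2 fold change was -0.20 (SE 0.15, 95% CI -0.52 to 0.12, limma adjusted p = 0.429). Unlike *Chac1* and *Trib3*, *Hspa5* was at its highest in Cre replicate 2_2.

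The ER stress response element, through which ATF6 and XBP1 act, was searched on both strands as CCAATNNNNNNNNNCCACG. It was found for 1 of the 10 genes, *Hspa5*, and in 0.119% of all 32851 promoters, *Canx* and *Hsp90b1* among them. Its shorter part CCACG, which the full element contains, was found for 7 of the 10 genes and in 32.8% of promoters. The *Hspa5* promoter is shown with the element at bases -65 to -47 in capitals, as the ER counterpart of the CARE sequences above.
Hspa5 promoter, chr2:34771840-34772089, plus strand, bases -250 to -1: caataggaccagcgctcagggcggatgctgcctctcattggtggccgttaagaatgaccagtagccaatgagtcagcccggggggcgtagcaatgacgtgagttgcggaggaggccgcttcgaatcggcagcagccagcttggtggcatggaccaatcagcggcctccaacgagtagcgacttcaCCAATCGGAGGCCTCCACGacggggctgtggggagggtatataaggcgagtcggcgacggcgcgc

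*Xbp1*, the mRNA that IRE1 splices, was at 109, 74.6 and 90.7 in the controls, and at 185, 105 and 68.0 with Cre. The Cre libraries again held both extremes. The log2 fold change was 0.28 (SE 0.32, 95% CI -0.42 to 0.98, limma adjusted p = 0.640), and -0.10 without Cre replicate 2. The annotated transcripts Xbp1-001 and Xbp1-201 differ by the 26 bases that IRE1 cuts out, given in capitals with 20 bases on each side. The count per gene adds both forms.
Xbp1-001 transcript, bases 815 to 840 in capitals: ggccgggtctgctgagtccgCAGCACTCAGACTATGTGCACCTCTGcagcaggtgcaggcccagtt

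The ER chaperones were then set beside the ATF4 targets. Of 19 tested ER chaperones and folding enzymes, *Hspa5* included, 0 were called by limma, edgeR or DESeq2 (3, 2 and 2 at an unadjusted p under 0.05), 6 log2 fold changes were above 0 and 13 below, and the groups did not overlap for 5. Over all 14840 tested genes limma called 9.96%, the groups did not overlap for 30.3%, and 3778 were at an unadjusted p under 0.05 with limma. The median of the chaperones was -0.13, the same to 2 decimals as for the 5 ATF4 targets, and the difference of the medians was 0.0044. The difference was 0.37 without Cre replicate 2_2, which took the targets' median up. Its spread between libraries was 0.33, and the 5 targets ran from -1.17 to 0.18, so the close medians do not show that the 2 lists changed alike. *Canx*, the lectin chaperone calnexin, was at 8838 to 10094 in control and 8710 to 9953 with Cre (log2 fold change -0.01, adjusted p = 0.975). *Hsp90b1*, the ER form of HSP90, was at 6466 to 8001 and 6354 to 7135 (log2 fold change -0.08, adjusted p = 0.735). For both the groups overlapped. Across libraries the mean over the 19 genes, on the same log2 scale relative to control, was 0.07, 0.01 and -0.08 in the controls and -0.09, -0.14 and -0.18 with Cre. All 3 Cre libraries thus lay below the controls, though Cre replicate 2 and control replicate 2 were nearly level, whereas the mean of the 5 targets lay below every control only in Cre replicate 2_2.

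Of the 5 genes for the sensors and their proteases (*Ern1*, *Atf6*, *Atf6b*, *Mbtps1* and *Mbtps2*, median -0.11), 0 were called by limma, edgeR or DESeq2, and 1 was at an unadjusted p under 0.05 with each. Over all tested genes limma called 9.96%. *Mbtps1*, the protease that cuts ATF6, had a log2 fold change of -0.11 (adjusted p = 0.560). *Atf6b*, a relative of ATF6, was at 645, 816 and 906 in the controls and at 643, 411 and 614 with Cre, so the groups did not overlap, but it was not called (log2 fold change -0.52, SE 0.19, adjusted p = 0.108). Without Cre replicate 2 it was called lower (log2 fold change -0.64, adjusted p = 0.0313).

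Of 15 tested genes for removing misfolded proteins from the ER and for carrying proteins across its membrane, 2 were called higher and 0 lower (median 0.25, 11 above 0). That was 13.3% called, beside 9.96% of all tested genes in either direction and 4.74% higher. The groups did not overlap for 6 of the 15, beside 30.3% of all tested genes. *Selenos*, a selenoprotein of the retrotranslocation complex, was at 1466, 1616 and 1663 in the controls, and at 2404, 2338 and 2135 with Cre. Each Cre library lay above every control (log2 fold change 0.53, SE 0.11, limma adjusted p = 0.0137). *Os9*, a lectin that hands misfolded glycoproteins to degradation, rose from 798 ± 26.6 to 1100 ± 142 (SD, n = 3 each; log2 fold change 0.46, SE 0.13, limma adjusted p = 0.0449). *Selenos* was called in 12 of the 16 alternatives, and not without control replicate 1 or 1_1 or Cre replicate 2_2 (adjusted p from 0.0512 to 0.0971). It was also not called with control 1 and 1_1 averaged (adjusted p = 0.0634). *Os9* was called in 9, and leaving out any single library other than Cre replicate 2 ended its call (adjusted p from 0.0589 to 0.177). Averaging control 1 with 1_1 ended it as well (adjusted p = 0.141), as did the fit with no low-count filter (limma adjusted p = 0.054).

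Upstream, of 12 tested genes for the eIF2 kinases, eIF2, its exchange factor eIF2B and its phosphatase, 0 were called higher and 3 lower, with a median of -0.20 and no overlap between the groups for 8. Over all tested genes 5.22% were called lower and the groups did not overlap for 30.3%. *Eif2s1*, the eIF2 subunit that the kinases phosphorylate, was at 351, 326 and 300 in the controls, and at 214, 222 and 207 with Cre. It fell by 0.60 on the log2 scale (SE 0.14, limma adjusted p = 0.0226). The eIF2B subunits *Eif2b2* (1450 ± 109 to 951 ± 231, log2 fold change -0.63, SE 0.16, limma adjusted p = 0.0319) and *Eif2b3* (345 ± 55.8 to 232 ± 20.1, log2 fold change -0.56, SE 0.16, limma adjusted p = 0.0472) also fell (SD, n = 3 each). These 3 calls held in 11, 10 and 7 of 16 alternatives, and each was lost without Cre replicate 2_2 (adjusted p = 0.0611, 0.137 and 0.138) and without control replicate 1 (adjusted p = 0.130, 0.0834 and 0.222). They were also lost without control replicate 1_1 or 2 (adjusted p from 0.0572 to 0.123), and that of *Eif2b3* without Cre replicate 3 (adjusted p = 0.0848). Averaging control 1 with 1_1 ended all 3 calls as well (adjusted p = 0.0904, 0.0928 and 0.120). Averaging Cre 2 with 2_2 ended those of *Eif2b2* and *Eif2b3* (limma adjusted p = 0.0614 and 0.0516). *Eif2b3* was also not called with TMM or total-count scaling (limma adjusted p = 0.0515 and 0.0621). None of the 4 kinase genes was called. *Eif2ak3*, which encodes the ER stress kinase PERK, was at 224 to 297 in control and 309 to 326 with Cre (log2 fold change 0.26, adjusted p = 0.318).

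While the 10 genes were not called, some other genes linked to ATF4 were. In the 4 wider lists, of 44 tested genes 4 were called higher and 4 lower (18.2% in all, beside 9.96% of all tested genes), with a median of 0.0030. The plot of log2 fold changes by list shows these calls on both sides of 0. Without Cre replicate 2 the count was 13, where calls over all 14840 genes also rose, from 1478 to 2396, and without Cre replicate 2_2 it was 5, beside 724 over all genes.

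**Figure D4:**
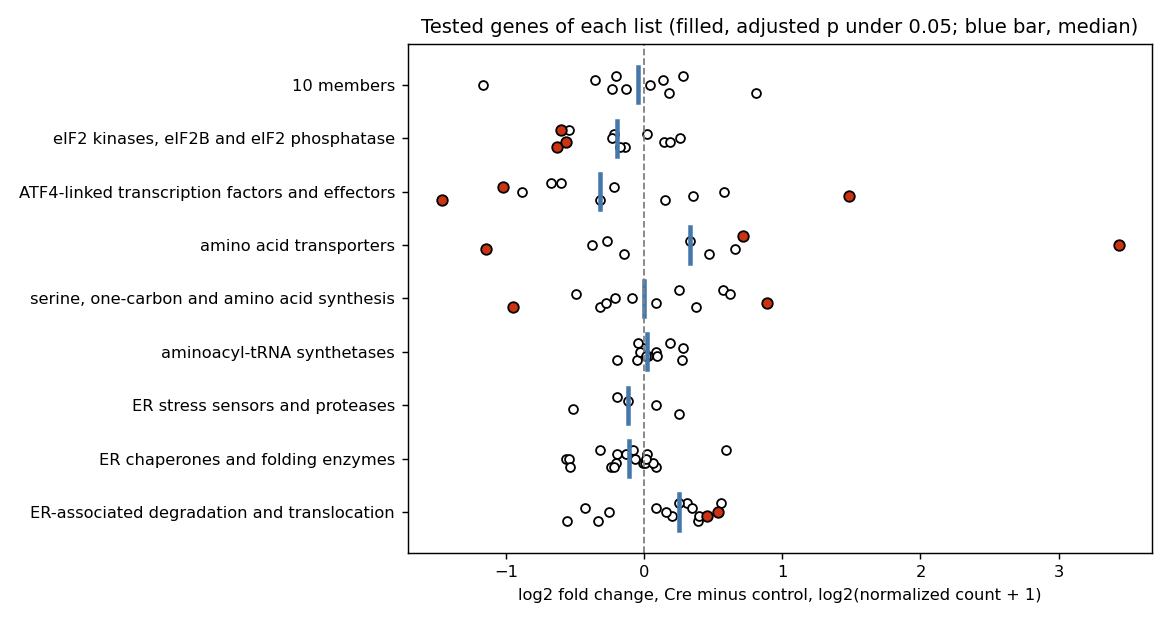
Log2 fold changes, Cre minus control, on the log2(normalized count + 1) scale (horizontal axis) of the tested genes in each list (rows); filled points are genes called by limma and blue bars list medians. The 10 genes, the tRNA synthetases, the ER sensors and the ER chaperones hold no called gene, and *Slc7a3* lies furthest out at 3.43.

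Among 11 tested factors and effectors 1 was called higher and 2 lower (27.3%, beside 9.96% of all tested genes), with a median of -0.32. *Atf5*, a transcription factor whose mRNA is translated under stress in the same way as that of *Atf4*, was at 711, 1391 and 1526 in the controls, and at 2184, 3481 and 4341 with Cre. Every Cre library was above every control, although control replicate 1 was the lowest control here too. Its log2 fold change was 1.48 (SE 0.29, limma adjusted p = 0.00925), called in 15 of 16 alternatives and not without Cre replicate 2_2 (adjusted p = 0.0549).

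*Gdf15*, a stress hormone often raised with CHOP, was at 1479, 2286 and 2723 in the controls, and at 580, 642 and 1168 with Cre. It was lower in all 3 Cre libraries (log2 fold change -1.47, SE 0.27, limma adjusted p = 0.00635) and was called in all 16 alternatives. *Stc2*, a secreted glycoprotein of the ER stress response, was at 181, 224 and 179 in the controls, and at 141, 57.7 and 104 with Cre. It fell by 1.03 on the log2 scale (SE 0.28, limma adjusted p = 0.0432). *Stc2* shared its lowest library with *Chac1* and *Trib3* and was not called without Cre replicate 2_2 (adjusted p = 0.115). Its call held in 9 of 16 alternatives, and of the fits with a library left out it held only without Cre replicate 2 (adjusted p of the others from 0.0508 to 0.153). The call was also lost with control 1 and 1_1 averaged (adjusted p = 0.129) and with edgeR on recovered reads (adjusted p = 0.0556).

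Of 9 amino acid transporters 2 were called higher and 1 lower (33.3%, beside 9.96% of all tested genes), with a median of 0.33. *Slc7a3*, a carrier of arginine and lysine, was at 7.34, 13.2 and 13.3 in the controls, and at 144, 145 and 100 with Cre. The controls rested on 8 to 10 reads per library and the Cre libraries on 112 to 208. Between the groups the log2 fold change was 3.43 (SE 0.31, limma adjusted p = 0.000102).

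*Slc6a9*, a glycine transporter, rose from 566 ± 89.0 to 925 ± 95.4 (SD, n = 3 each; log2 fold change 0.71, SE 0.15, limma adjusted p = 0.0120). *Slc1a5*, a glutamine carrier, was at 188, 203 and 224 in the controls and fell to 102, 79.2 and 95.8 with Cre (log2 fold change -1.15, SE 0.18, limma adjusted p = 0.00301). *Slc7a3* and *Slc1a5* were called in all 16 alternatives and *Slc6a9* in 15, the exception being the fit without control replicate 1 (adjusted p = 0.0722).

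Of 12 genes of serine, one-carbon and amino acid synthesis 1 was called in each direction (16.7%, beside 9.96% of all tested genes). Their median was 0.00065. *Aldh1l2*, a mitochondrial enzyme of folate metabolism, was at 685, 1110 and 1087 in the controls, and at 1540, 1728 and 1987 with Cre (log2 fold change 0.89, SE 0.18, limma adjusted p = 0.0119). *Shmt1*, the cytosolic serine hydroxymethyltransferase, was at 972, 788 and 1048 in the controls, and at 548, 558 and 366 with Cre (log2 fold change -0.95, SE 0.18, limma adjusted p = 0.00775). For both genes the groups did not overlap. Each was called in 15 of 16 alternatives, *Aldh1l2* not without Cre replicate 2_2 (adjusted p = 0.0551) and *Shmt1* not without control replicate 2 (adjusted p = 0.0527).

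The 12 genes of tRNA charging and export had 0 calls with limma, edgeR or DESeq2, also 0 at an unadjusted p under 0.05 with each, and a median of 0.02, with values from -0.20 to 0.28. Over all 14840 tested genes limma called 9.96%, and 3778 were at an unadjusted p under 0.05. *Sars*, the seryl-tRNA synthetase, was at 4794 to 6743 in control and 7058 to 7781 with Cre (log2 fold change 0.28, adjusted p = 0.266), and *Eprs*, the glutamyl-prolyl-tRNA synthetase, was at 5509 to 6716 and 6055 to 6890 (log2 fold change 0.08, adjusted p = 0.728). Control replicate 1 was low for this list as well, at a mean of -0.22 against 0.10 and 0.12 in the other controls on the same log2 scale.

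**Figure D5:**
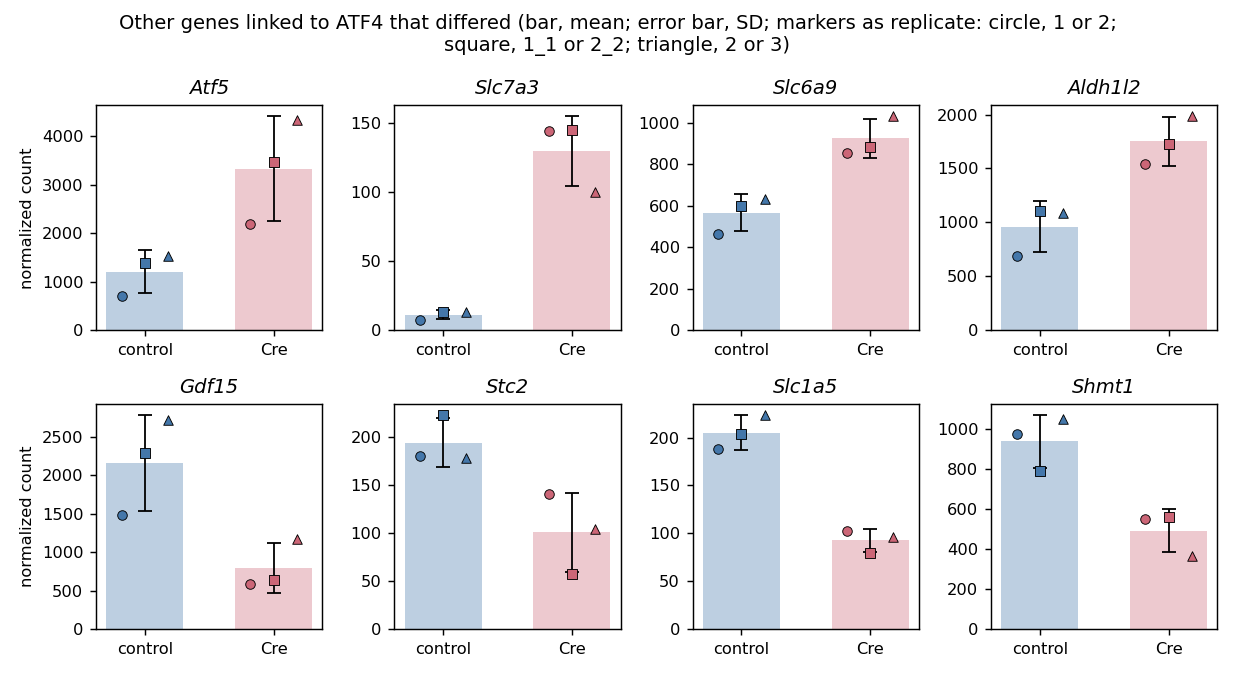
Normalized counts (vertical axes, each from 0) of 8 called genes linked to ATF4 in control libraries and libraries labelled Cre; bars are means of 3 libraries, error bars SD, and markers the single libraries. The top row (*Atf5*, *Slc7a3*, *Slc6a9*, *Aldh1l2*) is higher in all 3 Cre libraries and the bottom row (*Gdf15*, *Stc2*, *Slc1a5*, *Shmt1*) lower.

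Some markers of glia were also higher with Cre. Over all tested genes 4.74% were called higher and 5.22% lower. Of 7 tested astrocyte markers 3 were called higher (*S100b*, *Aqp4* and *Slc1a2*) and 0 lower. Log2 fold changes ran up to 3.10 and were above 0 for 6 of them. The 1 below 0 stood at -1.65 and was not called. The list's summed normalized count was 8922 to 9627 in control and 12897 to 14021 with Cre, with *Gfap* under the minimum mean. Of 6 tested markers of the oligodendrocyte lineage 3 were called higher (*Olig2*, *Pdgfra* and *Cspg4*) and 0 lower (summed 12488 to 14404 and 17236 to 19639). Of 5 tested neuron markers 0 were called, and 0 were at an unadjusted p under 0.05 (summed 9252 to 9470 and 10104 to 11329, *Stmn2* at 0 throughout). Their part in the differences of *Atf5*, *Slc7a3* and the other called genes was not tested.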

How the data were processed

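RNA-seq values of 6 NSC libraries, 3 control and 3 labelled Cre, were analysed, and groups were taken from the sample labels. The libraries were made with a TruSeq RNA v2 kit from total RNA. The paper names TopHat with mm9 and mm10, whereas the submitters' processing notes name STAR 2.7, mm10 and DESeq2. The read counter, strand setting and annotation are not given in the sources used here, and each can change values of genes that overlap or have copies. The authors deposited, per gene and library, a signal of DESeq2 normalized counts, that is counts divided by 1 size factor per library. Their own columns of mean, fold change, standard error, test statistic and p-values were not used.

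The table had 53379 rows, of which 873 had no gene name and 1 lacked a value in 1 library and was left out. Dividing by the value of 1 read gave whole reads for 100% of values (within 0.01, largest deviation 6.86e-05). Depth was 7510615 to 14828100 reads on genes, and 3 libraries per group limit the precision of every difference.

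limma 3.58.1 in R 4.3.3 (lmFit and eBayes with a trend, no covariate) was run on log2(normalized count + 1). It tested 14840 genes, those whose mean reached 10, and p-values were adjusted by Benjamini-Hochberg over all of them (threshold 0.05). This scale understates fold changes of low genes. Alternatives were edgeR 4.0.16 (quasi-likelihood) and DESeq2 1.42.0 on recovered whole reads, a pseudocount of 0.5 or of 5, no low-count filter, a mean of at least 50, TMM and total-count scaling, averaging control 1 with 1_1 or Cre 2 with 2_2, and leaving out each library. The 10 genes and the lists were chosen with earlier results of these data known, and lists are described by counts and medians without a test. In each pathway list the called genes are named, at most 6 by size, and the 2 most abundant where fewer than 2 were called. Other genes, among them *Eif2ak3*, were named after their values were seen.

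Lengths, overlaps, copies (blastn 2.17.0) and transcripts came from mm9 with GENCODE M1, and promoters from RefSeq on GRCm38.p6. Coordinates are of GRCm38.p6. Figures were drawn with matplotlib 3.10.9 in Python 3.11.15.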

Additional observations from a re-analysis of the deposited data

How the results depend on the processing

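The 10 genes were recomputed under 16 alternatives, except that *Phgdh* was below a mean of 50 and so had 15. Of their log2 fold changes, 150 kept direction and side of the threshold, 8 changed sign and 1 passed the threshold. The count of called genes among the 10 was 0 to 1 when 1 library was left out, the 1 being *Chac1* without Cre replicate 2, and 0 otherwise. At an unadjusted p under 0.05 it was at most 1, except without Cre replicate 3, where it was 4 (*Atf4*, *Chac1*, *Phgdh* and *Xbp1*). No paired analysis was possible because the groups share only 1 replicate number.

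Sign changes among the 10, none of them called, came only from leaving out a library, which gave ranges of -0.56 to 0.0040 for *Atf4*, -0.10 to 0.34 for *Ddit3*, -0.77 to 0.21 for *Trib3*, -0.14 to 0.32 for *Sesn2* and -0.10 to 0.62 for *Xbp1*. *Canx* turned to 0.0064 with control 1 and 1_1 averaged and to 0.020 with Cre 2 and 2_2 averaged. Leaving out a library gave -0.0655 to 0.0534 for *Canx* and -0.15 to 0.0045 for *Hsp90b1*.

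All genes called numbered 1478 (704 higher, 774 lower). They were 660 (351 higher, 309 lower) with control 1 and 1_1 averaged, and 558 to 2396 (308 to 1188 higher, 250 to 1208 lower) when a library was left out, with the maximum without Cre replicate 2. The median of the ER chaperones was -0.20 at a mean of at least 50, -0.19 with Cre 2 and 2_2 averaged, and -0.21 to -0.0588 when a library was left out, and 0 to 1 of them were called. The difference of medians between ATF4 targets and chaperones was -0.0664 to 0.37 when a library was left out, and -0.0069 to 0.37 with *Phgdh*. The wider ATF4-linked lists had 5 to 13 calls, 2 to 5 higher and 2 to 8 lower. Fits without a library pool the spread over genes and remaining libraries, and the cause of these changes was not tested. No scaling moved the median of all genes by over 0.1.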

Other observations

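Chaperones outside the ER were lower or not called. All 6 tested genes for mitochondrial chaperones and proteases had a log2 fold change below 0 (median -0.16). Of these, 2 were called lower (33.3%, beside 5.22% of all tested genes). *Hspd1*, which encodes the mitochondrial chaperonin HSP60, was at 1583, 1429 and 1344 in the controls, and at 1050, 895 and 762 with Cre (log2 fold change -0.69, SE 0.14, limma adjusted p = 0.0106). *Trap1*, the mitochondrial form of HSP90, was at 561, 651 and 636 in the controls, and at 364, 409 and 472 with Cre (log2 fold change -0.57, SE 0.14, limma adjusted p = 0.0265). For both genes every Cre library was below every control. The calls held in 14 and 11 of 16 alternatives. *Hspd1* was not called without control replicate 1 (adjusted p = 0.0719), and *Trap1* was not called without control replicates 1, 1_1 or 2 or Cre replicate 2_2 (adjusted p from 0.0697 to 0.109). Neither gene was called with control 1 and 1_1 averaged (adjusted p = 0.0525 and 0.0774).

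Of 8 tested cytosolic heat shock genes 0 were called higher and 1 lower (median -0.23), with 3 log2 fold changes above 0 and 5 below. The called share was 12.5%, close to the 9.96% of all tested genes called in either direction. *Hsph1*, a co-chaperone of HSP70, fell from 1192 ± 176 to 846 ± 61.7 (SD, n = 3 each; log2 fold change -0.49, SE 0.14, limma adjusted p = 0.0460), and the call held in 11 of 16 alternatives. It was lost without control replicates 1 or 1_1 or Cre replicates 2_2 or 3 (adjusted p from 0.0854 to 0.172). Averaging control 1 with 1_1 also ended the call (adjusted p = 0.158). The abundant *Hsp90ab1* was at 48780 to 58237 in control and 36724 to 53524 with Cre (log2 fold change -0.25, adjusted p = 0.432), and *Hspa8* at 3370 to 4019 and 2638 to 3582 (log2 fold change -0.35, adjusted p = 0.152). The inducible *Hspa1a*, *Hspa1b* and *Hspb1* stayed under the minimum mean of 10 and were not tested.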
